A study of Arabidopsis thaliana with 6 samples.

Results

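The comparison described here sets Arabidopsis seedlings kept under anoxia against seedlings kept in air, both without added sugar. It used 4 of the 6 arrays of the study: the 2 labelled anoxia, from experiments 1 and 2, and the 2 labelled air, with the same experiment numbers. All seedlings were of the ecotype Columbia glabra and had grown for 4 days in darkness at 23 °C on medium without sucrose. They then spent 6 h under anoxia or, for the controls, 6 h in air under otherwise unchanged conditions. The other 2 arrays held seedlings given 90 mM sucrose with the anoxia. They entered the estimate of the spread, the filter on low signals and the choice among several probe sets of 1 gene. Where an anoxia or air array was left out, they also helped set the experiment difference and so the log2 change. That change can then lie outside the values of both experiments. Each array carried RNA of whole seedlings pooled from 4 cultures, so 1 array stands for 1 pool, and a lower signal can mean fewer cells of a type or less RNA per cell, which these arrays cannot tell apart.

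Without oxygen, mitochondria cannot use it as the final electron acceptor, and plant cells draw their ATP from glycolysis, with fermentation returning the reduced cofactor to its oxidized form. A well-described set of genes, for fermentation enzymes and a group of small proteins, is switched on in many plant tissues within hours. Seedlings raised in darkness are at the same time elongating fast, by loosening and adding to the cell wall, and this growth is driven in part by auxin. The question was which functions moved besides the familiar low-oxygen genes, and whether both experiments showed it.

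Beyond the low-oxygen markers, the named genes that rose include several chaperones, and those that fell include genes of auxin response and of the cell wall. Under anoxia 7 of 10 small heat shock protein genes were higher, by 3.27- to 9.28-fold, and 4 of 18 other chaperones by 2.60- to 3.42-fold. Of all tested probe sets 0.961% were higher. Some chaperones were listed because they were among the calls, so these counts are descriptions and no test. The auxin-related genes AT3G53250 (SAUR57), IAA29 and AT2G18010 (SAUR10) were 8.06-, 5.45- and at least 4.54-fold lower than in air. Of the 8 tested Aux/IAA and GH3 genes IAA29 alone fell. Among wall genes, EXO fell, as did 2 of 15 expansins, 2 of 7 XTH enzymes, 2 of 7 cellulose synthase-like enzymes and 4 of 51 pectin genes, where 1.58% of all tested probe sets were lower, while the expansin-like gene AT4G30380 rose by 2.83 on the log2 scale. Most of these calls rest on pairing the arrays by experiment.

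Of 22746 probe sets (groups of short oligonucleotides that report 1 transcript), 15922 were bright enough to be tested. Of these, 404 passed in a fit that pairs the arrays by experiment number, which is 2.54% of those tested, at an adjusted p of at most 0.05. Under anoxia 153 were higher (0.961%) and 251 were lower (1.58%). The same fit without the pairing called 37 (0.232%), 17 higher and 20 lower. All 404 moved the same way in both experiments, which the paired test favours, while 58.5% of all tested probe sets did so. A change of at least 2-fold in each experiment was found for 127 of the higher and 200 of the lower ones.

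The changes were larger in experiment 1. The log2 change (anoxia minus air) of probe sets that rose had medians of 2.30 and 1.61 in experiments 1 and 2, and those that fell had medians of -1.86 and -1.49. The change was larger in experiment 1 for 111 of the 153 that rose and 180 of the 251 that fell, against 57.9% of all tested probe sets. Over all of them the log2 change had a median of 0.08 and was above 0 for 57.5%, which is the background for every gene group below.

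**Figure D1:**
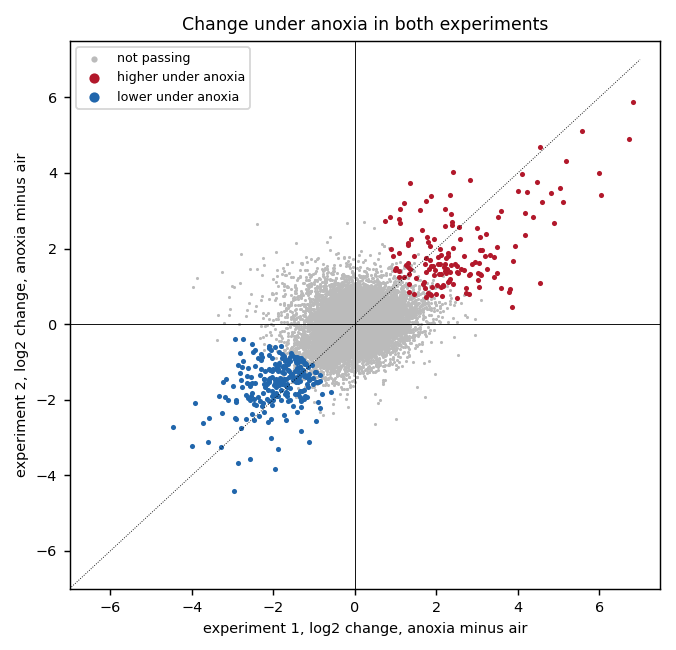
Each point is 1 of 15922 tested probe sets, with its log2 change (anoxia minus air) in experiment 1 on the horizontal axis and in experiment 2 on the vertical axis; red points (153) are higher under anoxia, blue points (251) are lower, grey points did not pass and the dotted line marks equal change. Most coloured points lie on the experiment 1 side of the dotted line, and all lie in the quadrants where both experiments agree.

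A single gene was assigned to 185 of the 404 probe sets, 61 of them higher and 124 lower, and the other 219 are counted but not named. The list of usual low-oxygen markers held 50 genes, of which 26 had a single-gene probe set and were tested. Of these 26 genes, 18 rose and 1 fell, with a median log2 change of 2.21. CML38, a calmodulin-like protein, had signals of 1409 and 799.9 under anoxia and 23.5 and 24.1 in air (experiments 1 and 2), a 26.9-fold rise (log2 4.75, SE 0.49, adjusted p = 1.16e-05). PDC2, a pyruvate decarboxylase of ethanolic fermentation, had 1584.7 and 470.2 under anoxia and 73.9 and 75.7 in air (9.66-fold, adjusted p = 0.00038). These genes were left out of what follows, which leaves 43 genes' probe sets that rose and 123 that fell.

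**Figure D2:**
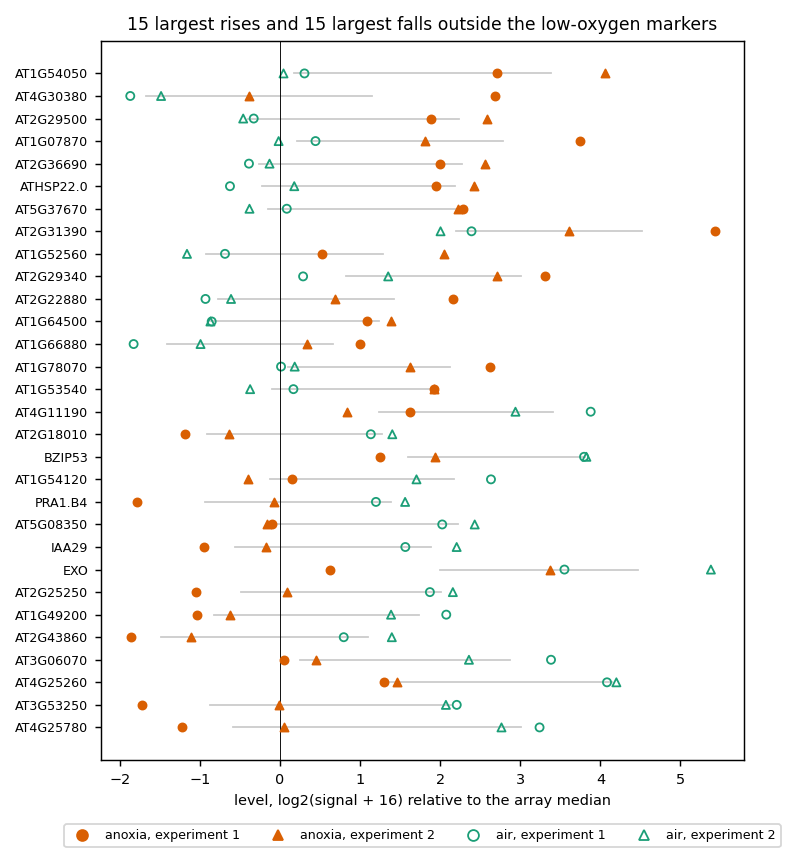
Levels of the 15 genes with the largest rise (upper rows) and the 15 with the largest fall (lower rows) outside the low-oxygen markers, as log2(signal + 16) relative to the array median. Filled orange symbols are anoxia and open green symbols are air, circles for experiment 1 and triangles for experiment 2; in every row both orange symbols lie on the same side of both green ones, and in that of EXO the anoxia triangle lies closest to an air symbol.

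Small heat shock proteins were the largest group of rises. These chaperones hold partly unfolded proteins until other chaperones refold them, and are known for their strong induction by heat. Of 10 tested members, 7 rose and none fell, and the median was 2.12 on the log2 scale, with 1.82 and 2.27 in experiments 1 and 2. Unlike the called probe sets as a whole, the list thus had its larger median in experiment 2.

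AT1G54050 had the largest rise outside the markers among probe sets with a single gene. Its signals were 385.7 and 785.7 under anoxia and 60.8 and 32.2 in air, a 9.28-fold rise (log2 3.21, SE 0.46, adjusted p = 0.00038). The lower anoxia array exceeded the higher air array by a wide margin, and experiment 2 gave the larger log2 change, 4.02 after 2.41 in experiment 1. AT2G29500 followed with 210.3 and 272.7 under anoxia against 33.5 and 18 in air (6.2-fold, adjusted p = 0.000798). ATHSP22.0, the only one of the 7 with a symbol in the gene table, had 220.6 and 242 under anoxia and 24.3 and 36.9 in air (5.32-fold, adjusted p = 0.00301). AT5G37670 had 283.5 and 208.4 under anoxia and 49.9 and 19.9 in air (5.30-fold, adjusted p = 0.000964). In these 3 genes the 2 anoxia arrays were close to each other, and every one of them lay far above both air arrays.

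AT1G52560 showed a less even rise, with 72 and 182.2 under anoxia and 22.6 and 4.9 in air (4.62-fold, adjusted p = 0.00283), so that experiment 1 gave 1.21 and experiment 2 gave 3.21 as log2 change. AT1G53540 had 216.9 and 165.9 under anoxia and 53.8 and 20.1 in air (4.08-fold, adjusted p = 0.00543). AT5G51440, named here although the naming rule stops short of it, had 162.3 and 174 under anoxia and 33.4 and 47.3 in air (3.27-fold, adjusted p = 0.0141). Their groups did not overlap either, which was so for 25.8% of all tested probe sets (deposited signals, either direction).

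The other 3 tested small heat shock proteins did not pass. AT4G21870 had 743.8 and 411.6 under anoxia and 1163.5 and 91.2 in air, lower under anoxia in experiment 1 and higher in experiment 2. AT2G19310 (log2 -0.03) and AT5G54660 (-0.19) had nearly the same signals in both conditions. Without the pairing, none of the 6 members named by rule passed, with adjusted p from 0.0651 to 0.236. ATHSP22.0 was lost without the air array of experiment 1 (adjusted p = 0.094), and AT1G52560 (0.0975, log2 1.32) and AT1G53540 (0.0848) without the air array of experiment 2.

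Among 18 other chaperones and co-chaperones, which include Hsp70, Hop, Fes1, J-domain and immunophilin proteins, 4 rose and none fell, with a median log2 change of 0.38. AT5G48570, the immunophilin ROF2 (FKBP65 in the gene table), had 166.2 and 367.3 under anoxia and 35.2 and 99.3 in air (3.42-fold, adjusted p = 0.0163). Hop3, which links Hsp70 to Hsp90, had 177.5 and 200.7 under anoxia and 18.3 and 115.8 in air (3.03-fold, adjusted p = 0.0464), so most of its change came from experiment 1 (log2 2.52, against 0.68 in experiment 2). Fes1A, a co-chaperone that binds Hsp70, had 154.2 and 167.4 under anoxia and 53.9 and 42.2 in air (2.76-fold, adjusted p = 0.0277). AT2G20560, a J-domain protein, had 139.3 and 133.6 under anoxia and 33.1 and 53.5 in air (2.60-fold, adjusted p = 0.0375).

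Relatives of these genes did not pass. Hop1 had log2 changes of 0.04 in experiment 1 and 0.16 in experiment 2, and Hop2 had 0.84 and 0.37. Fes1B had 0.30 and 0.23, and Fes1C had 1.01 and -0.03. The 2 Hsp70 genes with a tested probe set showed no rise in experiment 1: Hsp70-2 had 56.2 and 49.4 under anoxia and 64.6 and 104 in air, and AT3G09440 had 292.4 and 351.9 under anoxia and 361.6 and 335.7 in air. All 4 rises were lost without the anoxia array of experiment 1 (adjusted p from 0.254 for Fes1A to 1.00 for Hop3) or without the air array of experiment 1 (0.0671 for Fes1A to 0.742 for Hop3, whose log2 change was 0.85 and 0.97 in these cases), and none passed without the pairing (0.374 to 0.890). Leaving out a sucrose array also ended the calls of Fes1A (0.056 and 0.0519), Hop3 (0.136 and 0.127) and AT2G20560 (0.0781 and 0.0724), and leaving out either array of experiment 2 those of Fes1A (0.144 for anoxia and 0.198 for air) and AT5G48570 (0.0673 and 0.0515).

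**Figure D3:**
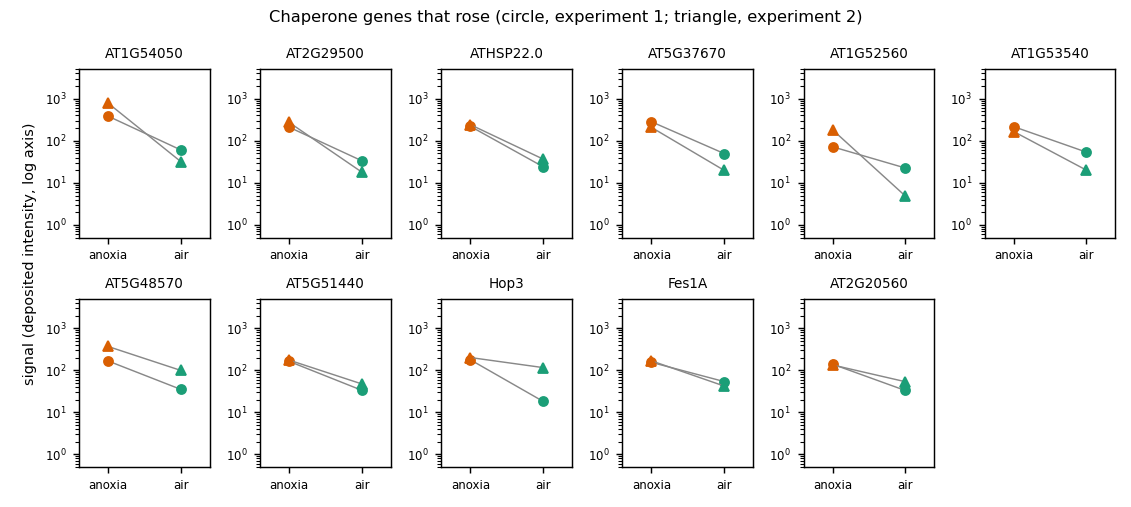
Deposited signals (vertical axis, log scale) of the 11 chaperone genes that rose, with anoxia in orange on the left and air in green on the right of each panel; lines join the arrays of 1 experiment, circles for experiment 1 and triangles for experiment 2. Every line falls towards air, and the lines of AT1G54050 and AT1G52560 are steeper in experiment 2 while that of Hop3 is steeper in experiment 1.

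Universal stress proteins are small nucleotide-binding proteins, several of which respond to low oxygen. Besides AT3G03270, which is also on the marker list, 1 of the 19 tested rose, where 0.961% of all tested probe sets did. The list was added because members were among the calls, so its count is a description. AT3G11930 had signals of 4703.8 and 1432.7 under anoxia and 1040.4 and 483 in air (3.58-fold, adjusted p = 0.0127). Its call was lost without the air array of experiment 1 (adjusted p = 0.207) and on loss of either anoxia array (0.0826 for experiment 1 and 0.0536 for experiment 2), and it did not pass without the pairing (0.763). Of the 19, 9 were higher in both experiments, and the list's median was 0.55 in the first experiment, against -0.04 in the second.

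Of the remaining genes among the 15 largest rises, AT4G30380, the expansin-like gene EXLB2, is on the expansin list and the others are on none. AT4G30380 had 377.5 and 20.7 under anoxia and 1 and 0.7 in air (7.09-fold, SE 0.68 on the log2 scale, adjusted p = 0.0272), a lower bound since both air signals lie under the added 16. Experiment 1 gave a log2 change of 4.55 and experiment 2 one of 1.10. The fitted change was 0.64, and the call was lost, without the air array of experiment 1. It was 5.01 with the experiment 2 air array left out. In these 2 fits the anoxia and sucrose arrays set the experiment difference, while the air signals themselves were near each other. Loss of either sucrose array, which changes the estimated spread alone, also ended the call (adjusted p = 0.0592 and 0.06).

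AT2G36690 and AT1G64500 were the only 2 of the 15 that also passed without the pairing (adjusted p = 0.0437 and 0.0393), and neither call was lost with any 1 array left out. AT2G36690 had 227.9 and 266.5 under anoxia and 31.5 and 26.7 in air (5.80-fold, SE 0.35, adjusted p = 0.000249 with the pairing). AT1G64500, a gene of the glutaredoxin family that carries no symbol and so is not on the thioredoxin and glutaredoxin list, had 114.3 and 109.8 under anoxia and 18.4 and 9.6 in air (4.29-fold, SE 0.29, adjusted p = 0.000249). In both, the 2 experiments gave nearly the same log2 change, 2.38 and 2.69 for AT2G36690 and 1.94 and 2.26 for AT1G64500.

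The gene tables used here name no function for the other 6. AT1G07870 had 808.7 and 152.2 under anoxia and 68.5 and 30.2 in air (5.93-fold, adjusted p = 0.00131). AT2G31390 had 2626.3 and 571.1 under anoxia and 310.2 and 171.7 in air (5.01-fold, adjusted p = 0.0066). AT2G29340 had 593 and 298.4 under anoxia and 59.9 and 103.3 in air (4.57-fold, adjusted p = 0.00795). In these 3, as in most of the called genes, experiment 1 showed the larger rise.

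AT2G22880 had 256.7 and 61.1 under anoxia and 16.6 and 14.6 in air (4.57-fold, adjusted p = 0.00823). AT1G66880 had 106.7 and 44.4 under anoxia and 1.5 and 7.5 in air, at least 4.22-fold (adjusted p = 0.00181). AT1G78070 had 361.7 and 132.3 under anoxia and 46.7 and 37.1 in air (4.08-fold, adjusted p = 0.0119). None of the 6 had overlapping groups, as for 25.8% of all tested probe sets. AT1G07870 (adjusted p = 0.0539), AT2G22880 (0.377), AT2G29340 (0.252) and AT2G31390 (0.231) were lost without the air array of experiment 1, and AT2G29340 (0.366), AT2G31390 (0.190) and AT1G78070 (0.540, log2 1.21) without its anoxia array. The log2 change of AT2G22880 was 1.04 without the air array of experiment 1 and 3.34 with the experiment 2 air array left out, and that of AT1G66880 was 1.27 without the first of these, its call kept. Here too the anoxia and sucrose arrays set the experiment difference, and the 2 air signals of AT2G22880 were near each other.

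Transcripts of the organelles' own genomes were mostly above 0, though few passed. Of 69 tested plastid genes, 66 were above 0 and 59 were higher in both experiments, with a median of 0.55 on the log2 scale (0.64 and 0.46 in experiments 1 and 2), against 0.08 over all probe sets. Only rps14, for a protein of the small plastid ribosomal subunit, rose, with 189.5 and 275.5 under anoxia and 98.9 and 24.2 in air (3.58-fold, adjusted p = 0.0272). That call was lost without the anoxia array (adjusted p = 0.627) or the air array (0.30) of experiment 2, either sucrose array (0.0925 and 0.0937) or the pairing (0.362), and the log2 change was 0.97 without the anoxia array of experiment 2. Without the air array of experiment 1 the median of the list was 0.21, and with the experiment 2 air array left out it was 0.93.

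All 13 tested mitochondrially encoded genes were higher in both experiments, with a median of 0.83 on the log2 scale. None passed on the brightest probe set of its gene. The 2 with the smallest p were nad5, a subunit of respiratory complex I, with 91.9 and 142.4 under anoxia and 34 and 43.7 in air (adjusted p = 0.0669), and ccb452, a factor of cytochrome c maturation, with 182.7 and 227.5 under anoxia and 45.7 and 97.2 in air (adjusted p = 0.088). A second, dimmer probe set of nad5 did pass (2.52-fold, adjusted p = 0.0496), as did 1 of the 7 tested probe sets of nad1 (2.38-fold, adjusted p = 0.0298). Because the nuclear genome carries copies of mitochondrial sequence, these signals cannot be assigned to the organelle alone. Control probe sets for 25S ribosomal RNA had signals of 1211.3 and 4.2 under anoxia and 167.5 and 12.5 in air, higher under anoxia in experiment 1 and lower in experiment 2; the part of this in the organelle signals was not tested.

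Nuclear genes for photosynthesis proteins had medians of opposite sign in the 2 experiments, and none was higher in both. Of 10 tested, none passed, and their medians were -0.77 and 0.67 in experiments 1 and 2. LHCB4.1, an antenna protein, had 2834.4 and 2944.6 under anoxia and 5113.5 and 2293.9 in air, and PSAN, a photosystem I subunit, had 1419.7 and 1399.1 under anoxia and 2939.5 and 1231.7 in air. In both the anoxia arrays were alike and the air arrays of the 2 experiments differed.

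Among the falls, genes tied to auxin stood high in the order of size. Auxin acts by removing Aux/IAA repressors, and SAUR genes are among its fast targets that promote cell elongation. The SAUR list held 74 genes, of which 3 had a single-gene probe set and 2 were tested. Both of these fell. AT3G53250 (SAUR57) had 2.5 and 31.4 under anoxia and 271 and 180.6 in air, 8.06-fold lower (log2 -3.01, SE 0.35, adjusted p = 3.82e-05), the second largest fall among the named genes. AT2G18010 (SAUR10) had 10.9 and 14.8 under anoxia and 120.4 and 107.6 in air, at least 4.54-fold lower (adjusted p = 0.00038). In both genes no anoxia array exceeded 31.4, and no air array was below 107.6.

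IAA29, an Aux/IAA repressor, had 15.7 and 26.6 under anoxia and 167.9 and 199.8 in air, 5.45-fold lower (log2 -2.45, SE 0.30, adjusted p = 5.34e-05), with log2 changes of -2.52 and -2.38 in experiments 1 and 2. LBD29, a transcription factor of the auxin response in lateral root formation, had 11 and 2.2 under anoxia and 96.2 and 44.5 in air, at least 3.74-fold lower (adjusted p = 0.00053). HAT2, an auxin-induced homeodomain factor, had 148 and 106.1 under anoxia and 589.5 and 345.3 in air (3.32-fold lower, adjusted p = 0.0237). IAA29 and LBD29 passed without the pairing (adjusted p = 0.0437 and 0.0487) and with any 1 array left out. The SAUR genes held with any 1 array left out but missed the threshold without the pairing (0.0534 for AT3G53250 and 0.05004 for AT2G18010), and HAT2 was lost without either anoxia array (0.281 and 0.156), without the air array of experiment 1 (0.209) and without the pairing (0.252).

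The other tested Aux/IAA and GH3 genes did not pass, and 1 of the 8 on that list fell. IAA18 had 219.5 and 182.9 under anoxia and 230.1 and 250.5 in air, and IAA20 had 134.3 and 84.6 under anoxia and 159.2 and 137.7 in air. GH3.3, whose product attaches amino acids to auxin, had 529.9 and 209.5 under anoxia and 220.6 and 183.2 in air, higher in both experiments. LBD16, the other tested LBD gene, had log2 changes of -0.77 and -0.78 without passing (adjusted p = 0.4). The LBD list held 40 genes, and that of HD-Zip class II factors, of which HAT2 alone was tested, held 9.

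Several families that act on the cell wall held genes that fell, mostly a few members each. EXO (EXORDIUM), a secreted protein of brassinosteroid-promoted growth, had 78.6 and 479.8 under anoxia and 713 and 1933.3 in air (5.53-fold lower, SE 0.43, adjusted p = 0.00245). The experiments differed in level, with the higher anoxia array under the lower air array and a fall in both (log2 -2.92 and -2.01). Without the anoxia array of experiment 1, EXO did not pass (adjusted p = 0.103), nor without the pairing (0.763). SKU5, a protein of directional root growth related to copper oxidases, had 313.2 and 644.7 under anoxia and 1425.7 and 1836.3 in air (3.52-fold lower, adjusted p = 0.0337), and was lost without either anoxia array (adjusted p = 0.190 and 0.186), without the air array of experiment 1 (0.550) and without the pairing (0.794).

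Expansins loosen walls without cutting their polymers. Of 15 tested, 2 fell, 1 rose (EXLB2, above) and 14 were below 0, with a median log2 change of -0.63. EXLA2 had 77.4 and 57.9 under anoxia and 393.1 and 148.8 in air (3.14-fold lower, adjusted p = 0.00936). EXPB1 had 37.5 and 18 under anoxia and 165.1 and 65.3 in air (2.86-fold lower, adjusted p = 0.0056). EXLA1, with 238.8 and 197.8 under anoxia and 858.7 and 513.3 in air, missed the threshold (adjusted p = 0.0802), as did EXPA4 with 153.9 and 79.7 against 399.6 and 296.6 (0.109). EXPA9 was higher under anoxia in experiment 1 and lower in experiment 2. EXLA2 (adjusted p = 0.052 and 0.392) and EXPB1 (0.06 and 0.0706) were both lost without the air or the anoxia array of experiment 1, and neither passed without the pairing (0.258 and 0.200).

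Xyloglucan is a polymer of these walls, and XTH enzymes cut and rejoin it. Of 7 tested XTH genes, 2 fell, with a median log2 change of -0.95. XTH33 had 60.3 and 25.7 under anoxia and 284.8 and 96.8 in air (3.28-fold lower, adjusted p = 0.00439). EXGT-A3 (XTH27) had 238.9 and 197.3 under anoxia and 807.8 and 606.6 in air (3.09-fold lower, adjusted p = 0.0431). XTH19 had log2 changes of -1.50 and -1.36 without passing (adjusted p = 0.142), while XTH32 was not lower in either experiment (0.02 and 0.78). EXGT-A3 was lost with any 1 array left out (adjusted p from 0.0521 to 0.380) and XTH33 with none, and neither passed without the pairing (0.349 for EXGT-A3 and 0.208 for XTH33).

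Cellulose synthase-like enzymes make the backbones of such polymers. All 7 tested were below 0 and 2 fell. CSLC04, which makes the glucan backbone of xyloglucan, had 173 and 143.8 under anoxia and 706 and 423 in air (3.26-fold lower, adjusted p = 0.0389). CSLA03, of the family that makes mannans, had 53.4 and 48.8 under anoxia and 154.3 and 132.9 in air (2.39-fold lower, adjusted p = 0.0275). Of their relatives, CSLC5 had log2 changes of -0.75 and -0.99 and CSLD2 had -0.08 and 0.04. Both calls were lost without either anoxia array or without the air array of experiment 1 (adjusted p from 0.104 to 0.436), CSLA03 also without either sucrose array (0.0798 and 0.0763), and both without the pairing (0.367 for CSLC04 and 0.353 for CSLA03).

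Pectins are the gel of the wall, and their methylation and cleavage set its stiffness. Of 51 tested genes for pectin enzymes and inhibitors, 4 fell, none rose and 38 were below 0, with a median log2 change of -0.20. AT4G25260, of the pectin methylesterase inhibitor family, had 134.3 and 115.7 under anoxia and 1037.9 and 844.1 in air, 6.80-fold lower (SE 0.42, adjusted p = 0.000587), with log2 changes of -2.79 and -2.74. AT2G43860, of the polygalacturonase family, had 0.8 and 6.2 under anoxia and 91.9 and 107.1 in air, at least 6.00-fold lower (adjusted p = 3e-05). The 2 experiments agreed closely in both genes, and both calls held with any 1 array left out. Without the pairing AT2G43860 passed (adjusted p = 0.0224) and AT4G25260 did not (0.0532).

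AT3G49220, of the pectin methylesterase family, had 343.5 and 165.1 under anoxia and 1404.9 and 505.9 in air (3.39-fold lower, adjusted p = 0.0332). AT3G62110, of the polygalacturonase family, had 24 and 81.7 under anoxia and 204.8 and 138.2 in air (2.97-fold lower, adjusted p = 0.0323), mostly through experiment 1. Both were lost without the air array of experiment 1 (adjusted p = 0.411 for AT3G49220 and 0.685 for AT3G62110) or the anoxia array of experiment 1 (0.303 and 0.627), AT3G49220 also without the anoxia array of experiment 2 (0.194), and AT3G62110 without either sucrose array (0.126 and 0.113). The log2 change of AT3G62110 was -0.70 without the air array of experiment 1 and -2.44 with the experiment 2 air array left out. Neither passed without the pairing (0.441 and 0.737).

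**Figure D4:**
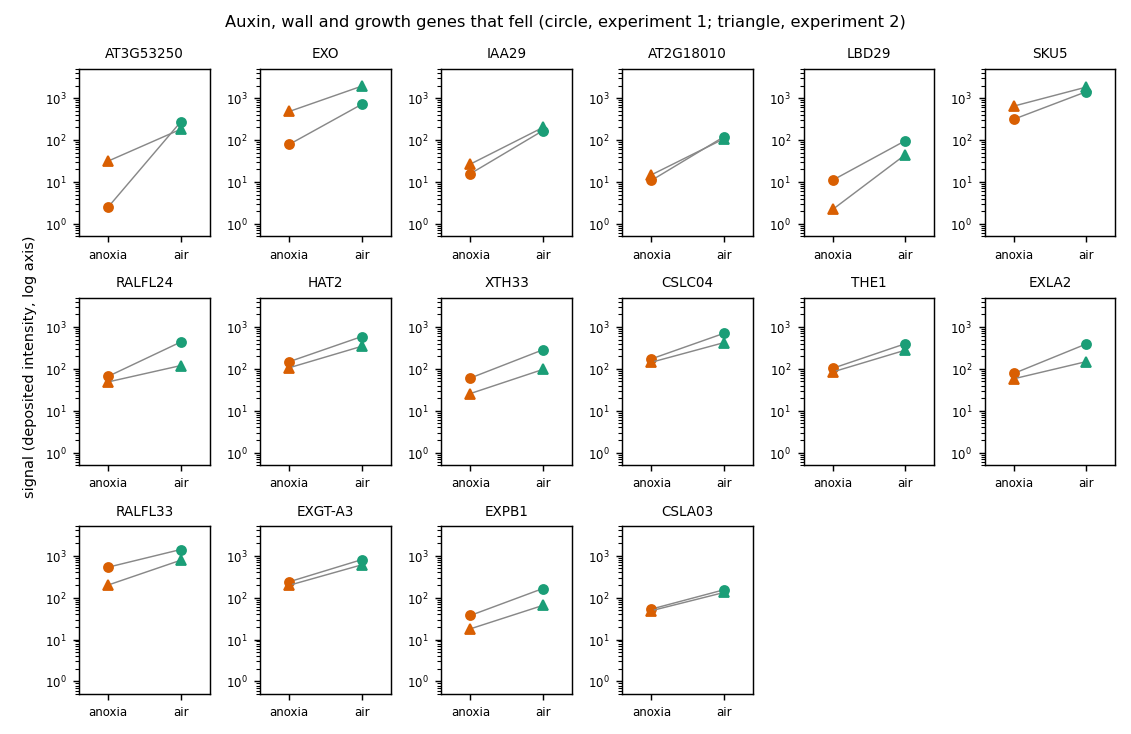
Deposited signals (vertical axis, log scale) of 16 genes of auxin response, wall and growth that fell, with anoxia in orange on the left and air in green on the right of each panel; lines join the arrays of 1 experiment, circles for experiment 1 and triangles for experiment 2. All 32 lines rise towards air, and those of EXO keep apart because experiment 2 was higher in both conditions.

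Of genes for signals and sensors at the wall, 3 fell. RALF peptides are secreted signals read at the cell surface by receptor kinases of the family of FER and THE1. RALFL24 had 66 and 48.7 under anoxia and 436 and 119.5 in air (3.42-fold lower, adjusted p = 0.0102), and RALFL33 had 532 and 199.7 under anoxia and 1406.6 and 780.7 in air (3.11-fold lower, adjusted p = 0.0438). They were the 2 of 10 tested RALF and CLE peptide genes to fall, and the list had a median log2 change of -0.39. RALFL27 (0.70), RALFL34 (0.17) and CLE41 (0.04) were above 0 without passing. Both calls were lost without the anoxia or the air array of experiment 1 (adjusted p from 0.0729 to 0.591), without either sucrose array (0.0524 to 0.0602) and without the pairing (0.365 and 0.603), and that of RALFL33 also without the anoxia (0.314) or the air array (0.289) of experiment 2.

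THE1 (THESEUS1), a receptor kinase that restrains growth when the wall is damaged, had 102.7 and 84.1 under anoxia and 397.1 and 278.4 in air (3.22-fold lower, adjusted p = 0.0221). All 5 tested kinases of its family were below 0, with a median log2 change of -0.94. FER (FERONIA), a RALF receptor, had 227.5 and 437.5 under anoxia and 542.4 and 708.6 in air without passing (adjusted p = 0.46). The call of THE1 was lost without either anoxia array (adjusted p = 0.118 and 0.211), without the air array of experiment 1 (0.181) and without the pairing (0.302).

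Other families of secreted proteins followed. Dirigent proteins guide the coupling of phenolic radicals into lignans and lignin, and 2 of 9 tested fell, and their median was -1.0. AT4G11190 had 173.4 and 70 under anoxia and 899.2 and 343 in air (4.52-fold lower, adjusted p = 0.0108), and AT4G11210 had 13.5 and 23.9 under anoxia and 155.5 and 40.2 in air (2.88-fold lower, adjusted p = 0.0272). AT4G11190 was lost without the air array of experiment 1 (adjusted p = 0.138), the anoxia array of experiment 2 (0.127) and the pairing (0.237). AT4G11210 was lost without the air (0.742) or the anoxia array (0.724) of experiment 1, either sucrose array (0.141 and 0.132) and the pairing (0.358), and its log2 change was -0.67 without the air array of experiment 1, -0.89 without the anoxia array and -2.38 without the air array of experiment 2.

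GDSL lipases, hydrolases that include cutin-building enzymes, fell in 3 of 33 cases (median log2 change -0.43), where 1.58% of all tested probe sets fell. This family too was added because members were among the calls, so its count is a description. AT5G55050 had 71.2 and 81.9 under anoxia and 587.1 and 193.2 in air (3.87-fold lower, adjusted p = 0.0146), AT1G29660 had 37.5 and 66.5 under anoxia and 237.9 and 204.2 in air (3.58-fold lower, adjusted p = 0.0056), and AT1G28570 had 26.5 and 33.4 under anoxia and 271.7 and 47.9 in air (2.98-fold lower, adjusted p = 0.0396). All 3 were lost without the anoxia or the air array of experiment 1 (adjusted p from 0.0689 to 0.888) and without the pairing (0.258 to 0.502), and AT5G55050 and AT1G28570 also without either sucrose array (0.0524 to 0.181). The change of AT1G28570 came mostly from experiment 1 (log2 -2.74, against -0.41 in experiment 2). Dropping the air array of experiment 1 gave -0.51, dropping its anoxia array gave -0.88, and dropping the air array of experiment 2 gave -2.63. That of AT5G55050 was -1.09 without the air array of experiment 1. Of 24 glucanases of family 17, which cut the wall polymer callose and related glucans, 21 were below 0 and 2 fell, with a median of -0.42. AT1G66250 had 5.6 and 6.7 under anoxia and 58.6 and 32.9 in air (at least 2.74-fold lower, adjusted p = 0.01), and AT4G18340 had 44.5 and 48.9 under anoxia and 141.1 and 163.4 in air (2.69-fold lower, adjusted p = 0.01). AT1G66250 was lost without the air (adjusted p = 0.31) or the anoxia array (0.235) of experiment 1, AT4G18340 without either anoxia array (0.137 and 0.0906), and both without the pairing (0.137 and 0.276).

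**Figure D5:**
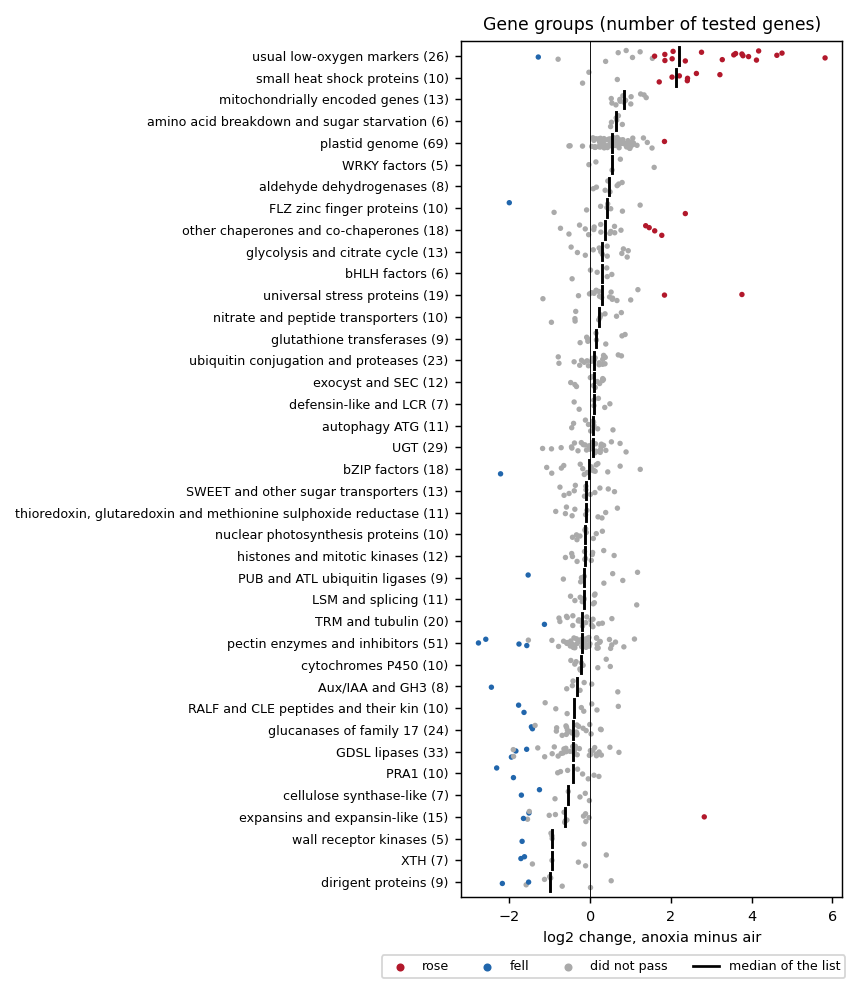
Log2 changes (anoxia minus air) of the tested genes in each gene group with at least 5 of them, 1 point per gene, ordered by the group's median (black bar) and labelled with the number of genes. Red points rose, blue points fell and grey points did not pass. Low-oxygen markers and small heat shock proteins have medians of 2.21 and 2.12, and dirigent proteins, XTH and wall receptor kinases have the lowest medians, -1.0, -0.95 and -0.94. Several groups, dirigent proteins and wall receptor kinases among them, were added because members were among the calls, so their place in this order is no test.

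Inside the cell, PRA1 proteins, which sit in membranes of the secretory route and bind Rab proteins, had 2 falls among 10 tested. PRA1.B4 had 1.7 and 29.4 under anoxia and 126.6 and 122.1 in air (4.98-fold lower, SE 0.32, adjusted p = 0.000249), and PRA1.B6 had 94.9 and 79.1 under anoxia and 508.9 and 260.9 in air (3.73-fold lower, adjusted p = 0.00832). Others of the family did not pass, such as PRA1.B1 (log2 -0.02 and 0.21) and PRA1.E (0.36 and -0.99). PRA1.B6 was lost without the anoxia (adjusted p = 0.216) or the air array (0.0818) of experiment 1, and neither passed without the pairing (0.207 for PRA1.B4 and 0.179 for PRA1.B6). The exocyst and SEC genes, also of secretion, had no call among 12, and their smallest adjusted p was 0.686.

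BZIP53 is a transcription factor known for its part in amino acid metabolism when energy is short. It had 129.6 and 167.5 under anoxia and 847.9 and 647.4 in air (4.66-fold lower, SE 0.42, adjusted p = 0.00507). BZIP53 was the only one of 18 tested bZIP genes to pass, where 2.54% of all tested probe sets did. Without the anoxia or the air array of experiment 1, and without the pairing (adjusted p = 0.164), BZIP53 did not pass. All 6 tested genes of amino acid breakdown were above 0 and none passed: MCCA, a subunit of an enzyme of leucine breakdown, had 3315.4 and 1846 under anoxia and 1503.7 and 1516 in air (adjusted p = 0.48). The medians of that list were 1.21 and 0.24 in experiments 1 and 2.

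Zinc finger proteins of the FLZ family moved both ways, with 1 rise and 1 fall among 10 tested. AT4G17670, also a low-oxygen marker, had 779.3 and 52.7 under anoxia and 42 and 19.5 in air (5.12-fold, adjusted p = 0.0178), and AT2G44670 had 92.3 and 119.2 under anoxia and 668.7 and 323.8 in air (4.01-fold lower, adjusted p = 0.0115). Both calls were lost without the anoxia array (adjusted p = 0.125 for AT4G17670 and 0.443 for AT2G44670) or the air array (0.774 and 0.220) of experiment 1 and without the pairing (0.850 and 0.207), and that of AT4G17670 also without either sucrose array (0.0825 and 0.0866), with log2 changes of 0.94 without the air array of experiment 1 and 3.78 with the experiment 2 air array left out. ATL8, a RING-type ubiquitin ligase, had 66.1 and 45.7 under anoxia and 134.9 and 263.2 in air (2.90-fold lower, adjusted p = 0.0236), the only one of 9 PUB and ATL genes to pass. TRM28, named for a motif that recruits the microtubule protein TON1, had 19.1 and 11.6 under anoxia and 66.1 and 40.1 in air (2.19-fold lower, adjusted p = 0.0343), the only one of 20 TRM and tubulin genes. Of all tested probe sets 2.54% passed. ATL8 was lost without either array of experiment 2 (adjusted p = 0.309 for anoxia and 0.256, with log2 -0.87, for air) or either sucrose array (0.0914 and 0.0899), TRM28 with any 1 array left out (0.0648 to 0.430), and both without the pairing (0.380 and 0.246).

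The largest fall among probe sets with a single gene was that of AT4G25780, whose function the gene tables do not give. It had 10.2 and 33.8 under anoxia and 571.8 and 302.1 in air, 12-fold lower (log2 -3.59, SE 0.36, adjusted p = 1.12e-05). AT3G06070 had 47.4 and 49.3 under anoxia and 633.1 and 224 in air (6.17-fold lower, adjusted p = 0.000351). AT1G49200 had 13.8 and 15.2 under anoxia and 246.1 and 106.3 in air, at least 5.90-fold lower (adjusted p = 4.83e-05). These 3 held with any 1 array left out, and in each the air array of experiment 1 was the brightest.

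AT2G25250 had 13.5 and 35.1 under anoxia and 211.5 and 192.8 in air (5.64-fold lower, adjusted p = 5.99e-05). AT5G08350 had 41.3 and 26.7 under anoxia and 237.1 and 236.3 in air (5.14-fold lower, adjusted p = 0.00011). AT1G54120 had 52.1 and 20.3 under anoxia and 370 and 136.4 in air (4.90-fold lower, adjusted p = 0.00038). Of these 6 genes without a named function, AT4G25780 (adjusted p = 0.0206), AT1G49200 (0.0224) and AT5G08350 (0.0303) also passed without the pairing, while AT2G25250 (0.0534), AT3G06070 (0.0631) and AT1G54120 (0.0756) did not.

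Of the 30 genes with the largest changes, 18 kept their call with any 1 array left out, 12 of them among the 15 falls and 6 among the 15 rises. Without the pairing 7 of the 30 passed, 2 rises and 5 falls.

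Of the 44 groups, 19 had no call on the brightest probe set of any tested gene. Coverage was thin in some, with 10 tested of 240 cytochromes P450, 5 of 72 WRKY factors and 7 of 89 defensin-like genes, and the 219 called probe sets without a single gene may include members of any group. The groups without a call include glycolysis and the citrate cycle, with 13 tested of 55 listed genes, 10 above 0 and a median log2 change of 0.30. GAPC2, a glycolytic dehydrogenase, had 3556.7 and 2303.7 under anoxia and 1955.4 and 1311.4 in air (adjusted p = 0.267), and ICL, isocitrate lyase of the glyoxylate cycle, had 5484.1 and 3647.9 under anoxia and 2347.5 and 2264.8 in air (0.129). Both were higher in both experiments. WRKY22, a transcription factor of defence and low-oxygen responses, came nearest to a call in these groups other than the mitochondrial one, with 343.2 and 157.4 under anoxia and 43.9 and 98.2 in air (adjusted p = 0.0757).

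All 8 aldehyde dehydrogenases were above 0 without passing, with ALDH6B2 at 3426.2 and 1733.4 under anoxia and 1368.8 and 1419.4 in air (adjusted p = 0.449). Autophagy genes (11 tested, median log2 change 0.07), UDP-glycosyltransferases (29, median 0.06), sugar transporters of the SWEET and other families (13, median -0.10), cytochromes P450 (10, median -0.23), and histones and mitotic kinases (12, median -0.12) were near the median of all probe sets or somewhat below it. Ubiquitin conjugation and protease genes (23, median 0.10), nitrate and peptide transporters (10, median 0.23), glutathione transferases (9, median 0.15) and splicing genes (11, median -0.15) held no call either, nor did the lists of bHLH factors (6, median 0.29), thioredoxins and glutaredoxins with such a symbol (11, median -0.11, without AT1G64500) and defensin-like proteins (7, median 0.09).

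Markers of cell types gave few values. Root hairs were covered by EXPA18 with 22.1 and 2.1 under anoxia and 47 and 19.7 in air (log2 -0.86, adjusted p = 0.18), and by EXPA7, whose signals of 2.4 and 2.8 under anoxia and 17.8 and 2.7 in air fell under the limit for testing. The stomatal lineage genes FMA (log2 0.41, adjusted p = 0.677) and SPCH (-0.28, 0.878), the division kinase AUR1 (-0.12, 0.949) and PORB, a protochlorophyllide reductase (0.15, 0.953), did not pass. PORB had 2003.8 and 2643 under anoxia and 2812.3 and 1507.1 in air, and was thus bright on all 4 arrays. The markers looked up for xylem, epidermis, embryo and seed reserves had no matched single-gene probe set in the annotation used.

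The 4 arrays had medians of 45.3 and 32 under anoxia and 46.2 and 30.8 in air, so signals are comparable within an experiment. Values under 16 made up 29.8% and 35.2% of probe sets under anoxia and 31.3% and 37.2% in air. The ratio of the 3′ to the 5′ probe sets of actin, a sign of RNA integrity or labelling length, was 2.75 and 2.59 under anoxia and 4.24 and 1.73 in air, highest in the air array of experiment 1, and its part in the results was not tested. The sucrose arrays had ratios of 21.6 in experiment 1 and 1.70 in experiment 2. Using the 4 anoxia and air arrays alone gave 267 calls in place of 404. With either sucrose array left out, the other is fitted exactly and adds no spread. Such fits therefore cannot set the 2 sucrose arrays apart, and the part of the high ratio in the calls was not tested.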

How the data were processed

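Total RNA of 6 pools of dark-grown seedlings, 2 each of anoxia, anoxia with sucrose, and air, was read on Affymetrix arrays. The authors deposited 1 linear intensity per probe set and array (22810 probe sets); per the labels' protocols, targets were made from about 10 µg of total RNA by standard procedures. How the scans were processed (software, background correction, scaling) is not given in the sources used here. The small number of arrays limits the precision. In the paired fit, p-values measure the spread left between these pools after the experiment difference is taken out, moderated with the spread of the other tested probe sets.

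After removal of 64 controls, intensities were transformed as log2(signal + 16) and centred on the median of the array. Those whose mean reached the 30th percentile were tested, 15922 of 22746. All fold changes are on the log2(signal + 16) scale, which understates changes of dim genes; "at least" marks genes with both signals of 1 condition under 16. The test was limma 3.58.1 in R 4.3.3, fitted over all 6 arrays with a coefficient per group and the experiment as a block, moderated by eBayes with a trend on intensity; p-values were two-sided, adjusted by Benjamini-Hochberg over all tested probe sets and called at 0.05. The residual degrees of freedom were 2, and eBayes added 17.0. The steps were tested on simulated data.

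The paired fit was taken as the main one because the comparison is defined by experiment number, with the counts of both fits (404 and 37) already known from earlier work on these data. The labels number the experiments and state no shared day. The difference between experiments correlated at r = 0.383 over probe sets between the anoxia pair and the air pair.

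Genes were named from the platform annotation, matched to RefSeq's table of assembly TAIR10.1, whose names alone were used. A single gene was given for 13513 non-control probe sets (13484 with a locus), several for 503, and 8730 had none. The brightest probe set stood for each of the 92 genes with several tested. The comparison and the 44 gene lists were chosen with earlier results of these data known, and the lists were rewritten after the calls of this fit had been seen: families were added because members were among the calls (EXORDIUM, HD-Zip class II, LBD, wall receptor kinases, SKU5, glucanases, FLZ, GDSL lipases, dirigent, PRA1, universal stress proteins and some chaperones) and thin lists were dropped. Counts per list are therefore descriptions. Membership by locus, and the family given for a locus without a symbol, rests on general knowledge of Arabidopsis genes. The genes named are the 15 largest rises and 15 largest falls outside the low-oxygen markers among passing single-gene probe sets that moved the same way in both experiments, up to 4 passing members of each list per direction, and in lists without a call the 2 smallest p. List members that did not pass are otherwise examples, chosen after their values were seen. Alternatives tried were no block, pseudocounts 1 and 64, other filters, quantile and trimmed-mean scaling, no trend, 4 arrays only, each array left out, a threshold of 0.01 and a 2-fold minimum.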

Additional observations from a re-analysis of the deposited data

How the results depend on the processing

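The number of probe sets called depended on the fit. It was 404 with the experiments as pairs (the replicate block), 37 without that block, 212 with a pseudocount of 1, 623 with no filter on low values, 267 with only the anoxia and air arrays, and 194 at a threshold of 0.01. Leaving out 1 array gave between 176 (the anoxia array of experiment 1) and 744 (the air array of experiment 2). Without that first one, 92 were higher and 84 lower, against 153 and 251. The cause was not tested. Pseudocount 64 gave 411, the 50th percentile 351, quantile normalization 279, trimmed-mean scaling 343, no trend 280 and a 2-fold minimum 327.

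Of 66 named genes that passed, 11 passed without the block, 48 with only 4 arrays and 44 with a pseudocount of 1, where 65 were tested. Their direction was the same under every alternative. The direction turned for medians of lists near 0: universal stress proteins (-0.020 to 0.68 with 1 array left out) and FLZ proteins (-0.039 to 0.56) without the air array of experiment 1, bZIP factors (-0.30 to 0.20) without that of experiment 2, and PUB and ATL ligases with a pseudocount of 1 (0.13) or the 50th percentile (0.34). It also turned for genes that did not pass: AT5G66930 (-0.12 to 1.25 with 1 array left out) and PDF1.2b (-0.17 to 0.90) when the anoxia array of experiment 1 was dropped, and LHCB4.1 (-0.88 to 0.38), PSAN (-1.04 to 0.17), BUB3.1 (-1.02 to 0.14) and PDF1.2b when its air array was. Signals near 16 limit dim genes, whose changes are lower bounds.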

Other observations

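Several genes with a name in RefSeq fall outside the groups above and were chosen after their values were seen. TIL, a lipocalin induced by temperature stress, had signals of 4363.1 and 2327.8 under anoxia and 1023.4 and 740.3 in air (3.59-fold, adjusted p = 0.00526 by limma). THI2.2, a thionin, had 151.1 and 79.9 under anoxia and 49.6 and 3.8 in air (3.49-fold, adjusted p = 0.0089). SNZ (SCHNARCHZAPFEN), a factor that delays flowering, had 31.5 and 63 under anoxia and 6.7 and 4.8 in air (at least 2.80-fold, adjusted p = 0.00853). TIL was high in all 4 arrays and higher in both anoxia arrays than in either air array, whereas SNZ was dim throughout.

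On the falling side, BRH1, a RING protein that responds to brassinosteroid, had 57.9 and 131.9 under anoxia and 344 and 497.9 in air (4.14-fold lower, adjusted p = 0.00499). DRT100, a leucine-rich repeat protein named for DNA damage tolerance, had 516 and 322.9 under anoxia and 2154.8 and 1304.8 in air (4.01-fold lower, adjusted p = 0.0139), with log2 changes of -2.01 and -2.0. TCP15, a growth-regulating transcription factor, had 50.6 and 66.5 under anoxia and 122.1 and 225.3 in air (2.48-fold lower, adjusted p = 0.0369). AT1G08280 (GALT29A), a glycosyltransferase, had 14.7 and 6.4 under anoxia and 51.1 and 43.7 in air (at least 2.43-fold lower, adjusted p = 0.0249). Of the 219 called probe sets without a single gene, none is described here.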
